A study of Peromyscus californicus with 17 samples.

Results

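Transcripts for subunits of the oxidative phosphorylation complexes were examined in lungs of male *Peromyscus californicus*, a monogamous deer mouse. The members were chosen by gene symbol alone, as the rows whose symbol names a subunit of complexes I to V, with assembly factors left out. This gave 60 genes of the 27786 in the table: 38 subunits of complex I (Nduf symbols), 4 of complex II (Sdha, Sdhb, Sdhc and Sdhd) and 18 of complex V (Atp5 symbols). No row matched the symbols of complex III (Uqcr) or complex IV (Cox4 to Cox8), so these complexes were not analysed here.

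Each of the 17 libraries came from the total RNA of the lung of 1 animal. The 6 bonded males (B1 to B6) had lived with a mate for about 4 months. The 6 bond-disrupted males (BD1 to BD6) had lived with a mate for about as long and were then separated from it, with the lung collected at day 7. The 5 virgin males (V2 to V6) had no mate and lived with other animals, 3 to a cage by the study's methods and 2 or 3 by its results text. By the study's methods the animals were 12 to 15 months old and of stock IS, a genetically diverse colony, so animals within a group differed in genotype. Bonded and bond-disrupted animals shared the months of pairing, and virgins differed from them in mating as well as in cage mates. Some animals of different groups were siblings or cousins.

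Oxidative phosphorylation makes most of the ATP of a resting cell. Complex I takes electrons from NADH and complex II takes them from succinate; the electrons pass through complexes III and IV to oxygen while protons are pumped out of the mitochondrial matrix, and complex V, the ATP synthase, lets the protons back in and makes ATP. The lung itself uses oxygen for surfactant synthesis in type 2 alveolar cells, for ciliary beating and for ion transport, and the subunits are expressed in every cell type, so levels in whole lung are averages over many cells. Fewer cells of a type that is rich in mitochondria and less RNA per cell could not be told apart here.

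The deposited values were FPKM, the reads per kilobase of gene, scaled to the depth of the library, but each column of the table had been divided by the length of a different gene. Levels are given here as own-length FPKM, that is, after the reads of each gene were recovered and divided by the gene's own length, which succeeded in all 17 animals for 26637 genes and for all 60 subunits. The recovered depth, in units of 1e+06 reads, was 30.8 to 68.2 in bonded, 43.9 to 59.4 in bond-disrupted and 38.0 to 44.9 in virgin animals. Each subunit had at least 645 reads in every animal, so counting error was small beside the spread between animals. Of 5 type 2 alveolar markers, 4 were in the table, and their summed level was 14780 FPKM or more in every animal. All 5 type 1 and all 4 endothelial markers were detected as well. Of 9 cardiac muscle markers, 8 were in the table, and none of them was at 0 in any animal. Their summed level ranged from 57.9 to 599 FPKM in bonded, from 100.1 to 333 in bond-disrupted and from 139 to 442 in virgin animals, and their part in the differences between groups was not tested. Skeletal muscle and brown fat markers summed to at most 22.6 and 3.02 FPKM. Fat markers reached at most 2.96 FPKM, erythroid markers 31.3, B and T cell markers 73.8 and ciliated cell markers 86.2.

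The subunits were among the abundant transcripts of the lung. Their mean levels over the 17 animals ran from 9.25 to 226 own-length FPKM with a median of 67.0, against a median of 7.94 for the 15783 genes tested, and 47 of the 60 lay in the highest 10% of tested genes. In all, the subunits took 0.367% to 0.545% of the reads of a library. Within complexes the levels were unequal, although most subunits are present in a fixed number per complex.

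**Figure D1:**
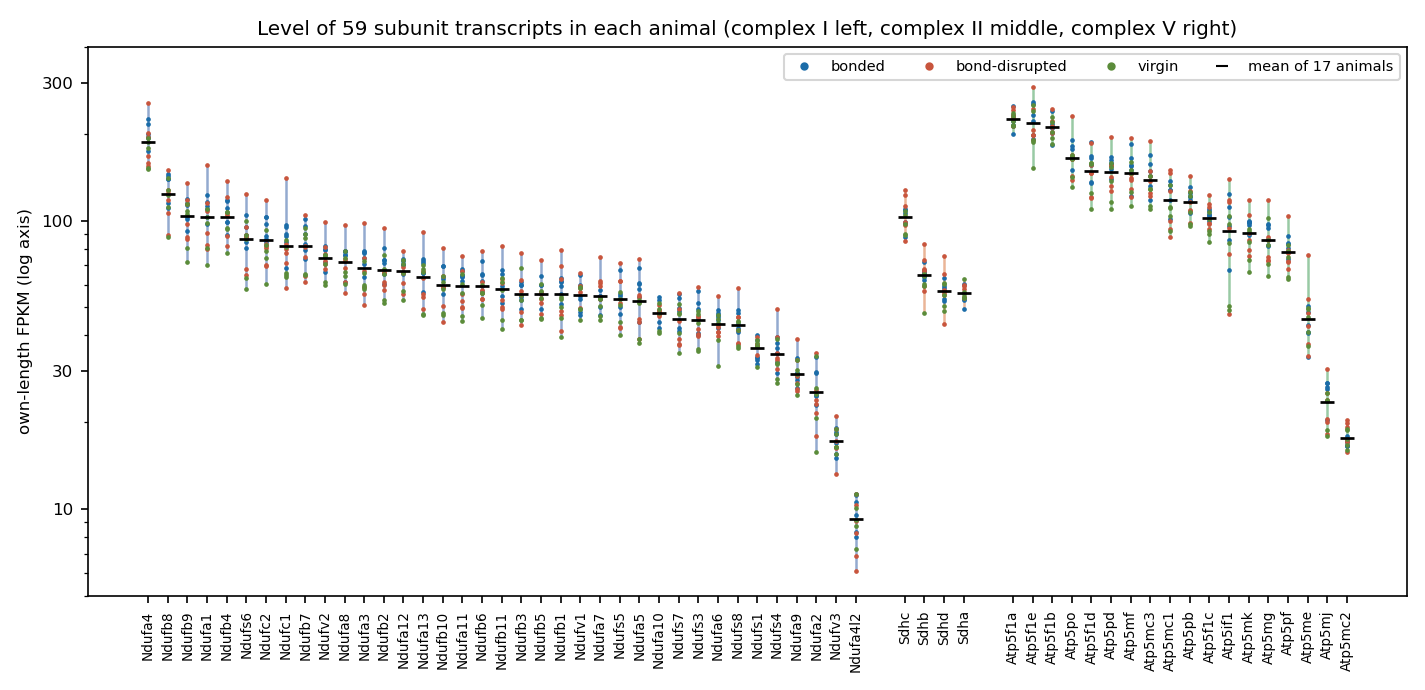
Level of 59 subunit transcripts in each animal, in own-length FPKM on a log axis, with complex I on the left, complex II in the middle and complex V on the right. Dots are animals, coloured by group, vertical lines run from the lowest to the highest animal and horizontal marks are means of 17 animals. The means run from 9.25 FPKM for Ndufa4l2 to 226 FPKM for Atp5f1a, and the 3 groups lie over each other in every gene.

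Complex V transcripts were the most abundant, with a median of 117 FPKM over 18 genes. The 5 subunits of the F1 head, where ATP is made, had a median of 211 FPKM. Atp5f1a, the alpha subunit, averaged 226 FPKM and Atp5f1b, the catalytic beta subunit, 211 FPKM. These transcripts kept close to a fixed proportion, with a ratio of Atp5f1a to Atp5f1b between 1.01 and 1.15 in the 17 animals (mean 1.07 ± 0.0396, SD), while the proteins stand in equal number in the enzyme. Atp5f1c, the gamma subunit of the rotating shaft, was at 0.412 to 0.544 of the level of Atp5f1b. The 4 subunits of the peripheral stalk had a median of 132 FPKM, and the lowest of them was Atp5pf at 77.7 FPKM. The 5 small membrane subunits besides subunit c had a median of 85.6 FPKM, from Atp5mf at 147 to Atp5mj at 23.4.

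Subunit c forms the proton-driven ring of complex V and is encoded by 3 genes whose mature proteins are the same. Atp5mc3 averaged 138 FPKM, Atp5mc1 averaged 117 FPKM and Atp5mc2 averaged 17.6 FPKM, the lowest level of complex V. Atp5mc3 gave 46.0% to 54.9% of the summed level of the 3 genes, Atp5mc1 gave 38.5% to 47.3% and Atp5mc2 gave 5.26% to 7.61%. Atp5mc3 and Atp5mc1 changed order between animals, with Atp5mc1 slightly higher in BD3 (150 against 149 FPKM) and V5 (133 against 129 FPKM). Atp5mc2 took 5.98% ± 0.488 (SD, n = 6) of the sum in bonded, 6.62% ± 0.726 (n = 6) in bond-disrupted and 7.02% ± 0.412 (n = 5) in virgin animals. The lowest virgin value of that share, 6.54%, was below the highest bonded value, 6.59%, so the groups overlapped. Genes for subunit c have many near-identical copies in mammalian genomes. The recovered reads of these 3 genes were whole in all 17 animals, and whether reads were lost to or gained from such copies was not tested.

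In complex I the median was 58.6 FPKM over 38 genes. The 7 core subunits, which carry the electrons from NADH to ubiquinone and are conserved from bacteria, had a median of 45.8 FPKM, with Ndufv2 at 74.5, Ndufv1, which binds NADH, at 55.2 and Ndufs1, the largest subunit, at 36.0. The 29 other subunits, which surround the core, had a median of 59.6 FPKM, from Ndufb8 at 123 to Ndufv3 at 17.2. Ndufa4 was named as a complex I subunit but is held to belong to complex IV, and it was the most abundant gene with an Nduf symbol at 188 FPKM. Its paralog Ndufa4l2, which is known for its induction in low oxygen, was the least abundant at 9.25 FPKM and stood at 2.68% to 7.49% of the level of Ndufa4. In complex II the 4 subunits were closer together. Sdhc, which anchors the complex in the membrane, averaged 103 FPKM, Sdhb, the iron-sulphur subunit, 64.8, Sdhd, the other anchor, 57.2, and Sdha, which oxidises succinate, 56.0.

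The subunits varied together from animal to animal. Each gene's log2(FPKM + 1) was set against its own mean over the 17 animals, and the median of these deviations over the 60 genes was taken in each animal. BD1 stood highest, with a median deviation of 0.41 and 59 of 60 genes above their mean, and BD1 was the highest of all animals for 51 of the 60. V2 and V3 stood lowest, with medians of -0.29 and -0.25 and with 2 and 3 genes above their mean. V2 was the lowest animal for 29 genes and V3 for 13. The other 14 animals lay between -0.18 and 0.18. Summed over the 60 genes, the level was 6392 FPKM in BD1, 3956 in V2 and 4068 in V3, and 4300 to 5534 in the others. All groups overlapped in this sum, which was 5068 ± 366 FPKM (SD, n = 6) in bonded, 4956 ± 786 (n = 6) in bond-disrupted and 4574 ± 519 (n = 5) in virgin animals.

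**Figure D2:**
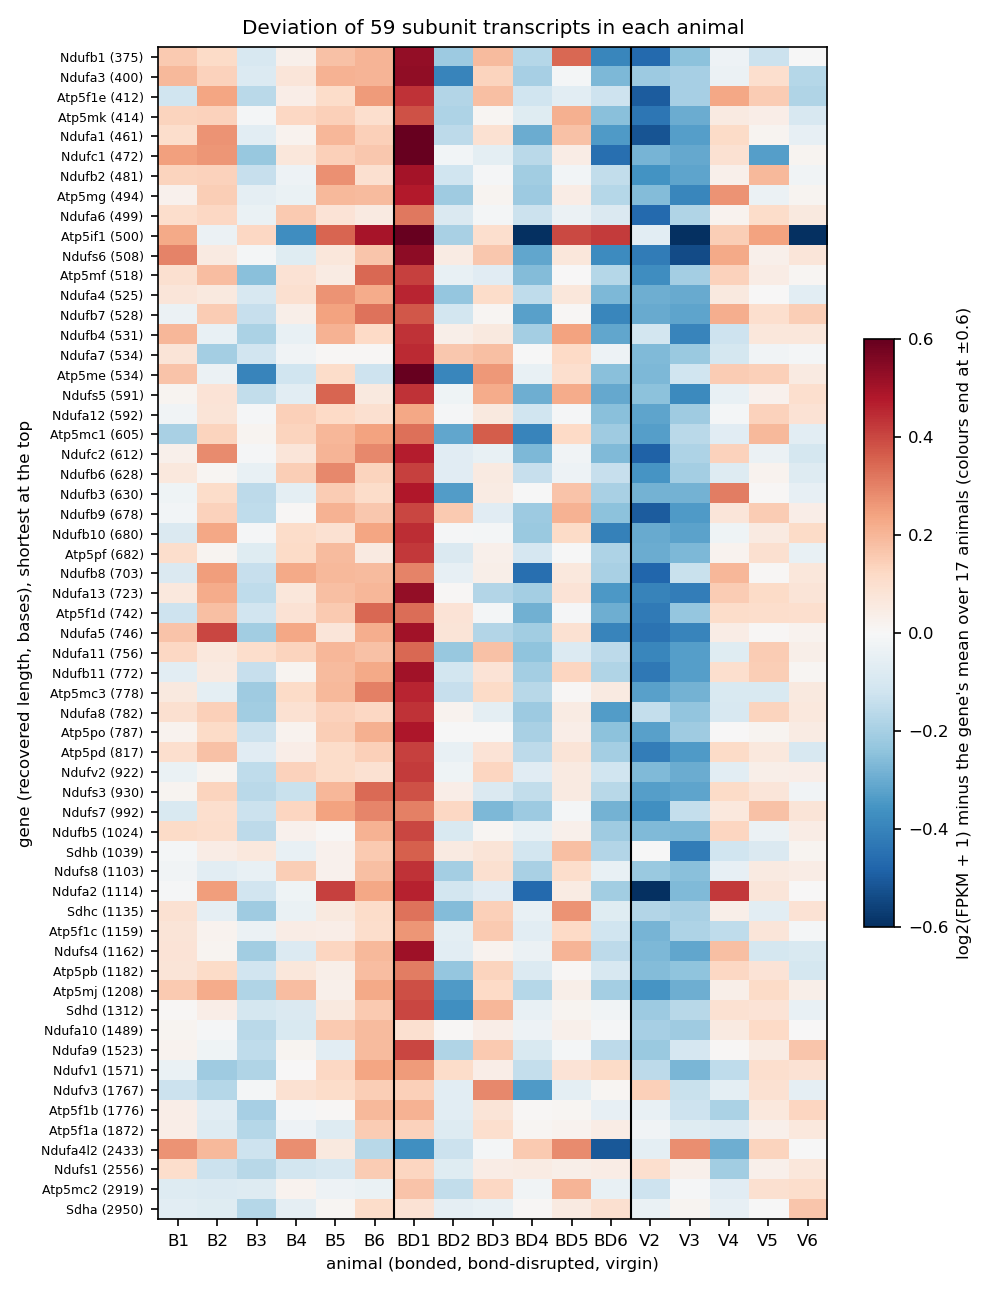
Deviation of 59 subunit transcripts (rows, ordered by recovered gene length in bases) in each animal (columns) from the gene's mean over 17 animals, on the log2(FPKM + 1) scale, with colours ending at 0.6 in each direction. The column of BD1 is raised and those of V2 and V3 are lowered for most genes of the upper rows, and the colours fade toward the longest genes at the bottom. Atp5if1 departs from most genes in some animals, and Ndufa4l2 has a pattern of its own.

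This shared variation was found mainly in short genes. The 39 subunits whose recovered length was under 1000 bases had a median deviation of 0.44 in BD1, -0.33 in V2 and -0.30 in V3. In the 10 subunits of 1500 bases or longer the same medians were 0.16, -0.05 and -0.08. Among the 60 genes the SD over the 17 animals fell with length (Pearson r = -0.62 and Spearman rho = -0.64 between SD and log2 length, across genes that share the same libraries). The steadiest subunit was Sdha, with 2950 bases and an SD within groups of 0.0826 on the log2 scale, followed by Atp5f1a with 0.0875, Atp5mc2 with 0.10 and Ndufs1 with 0.11. For comparison, the median SD within groups was 0.22 for the short subunits, 0.12 for the long ones and 0.21 for all genes tested.

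Short genes outside oxidative phosphorylation moved with the same animals. The 927 genes under 1000 bases with a mean of at least 5 FPKM, among which the subunits were counted, had median deviations of 0.30 in BD1, -0.26 in V2 and -0.20 in V3, whereas the 7808 such genes of 1500 bases or longer stayed between -0.04 and 0.04 in all 17 animals. Across the 17 animals the median of the short subunits went with that of all short genes (Pearson r = 0.95) and for long subunits and all long genes r was 0.18. The second r says little, because the median of all long genes, 7808 of the 9739 genes of at least 5 FPKM, hardly varied between animals. The 89 cytosolic ribosomal protein genes, which are also short, had an r of 0.76 with the median of all 60 subunits. They stood at 0.33 in V4, where the short subunits stood at 0.06. The long subunits went with the 13 enzymes of the citric acid cycle (r = 0.92), to which complex II belongs in function. The cardiac markers, of a tissue rich in mitochondria, moved in part with both. Their sum was highest in B6 (599 FPKM), where the long subunits stood at 0.15 and the cycle at 0.13, and lowest in B3 (57.9 FPKM), where these stood at -0.16 and -0.10. In BD1 the sum was 333 FPKM, the highest of its group. Other animals went the other way. BD3 had the next lowest sum after B3 (100.1 FPKM), with the long subunits at 0.06 and the cycle at 0.07. BD2 had 302 FPKM, with -0.07 and -0.09. Across the 17 animals the log2 of this sum had a Pearson r of 0.60 with the long subunits (Spearman rho 0.48) and of 0.54 with the cycle (rho 0.45). Without the 2 animals farthest from its median, B3 and B6, r was 0.24 and 0.19. With the short subunits r was 0.44 over 17 animals and 0.37 over 15. All of these medians come from the same 17 libraries, and what made short genes differ between libraries was not tested.

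**Figure D3:**
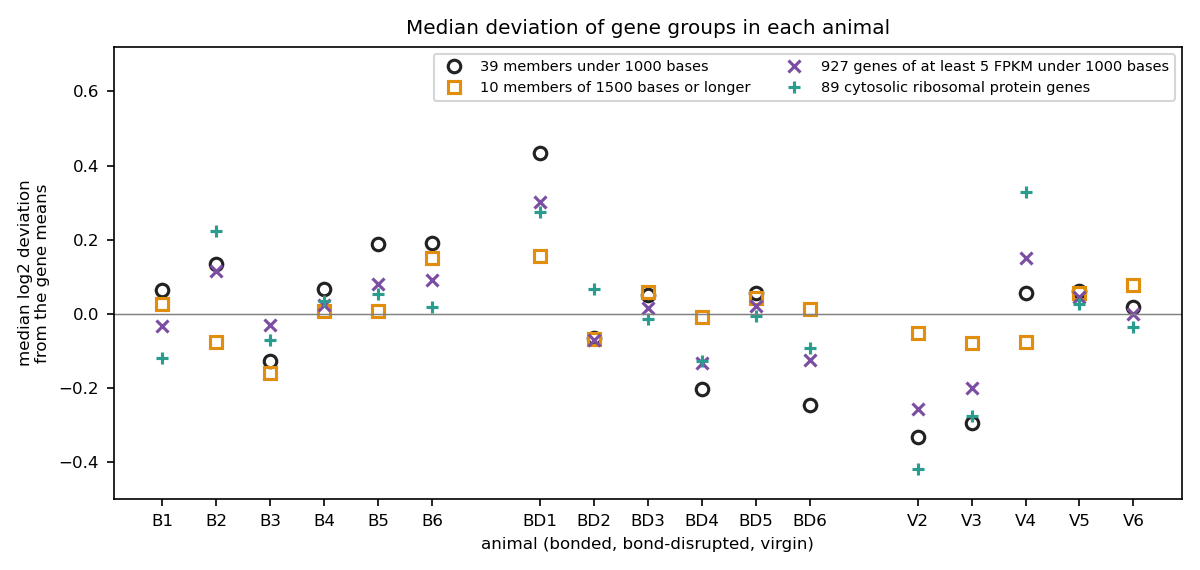
Median deviation from the gene means, on the log2(FPKM + 1) scale, in each of the 17 animals for short and long subunit genes, all short genes of at least 5 FPKM and cytosolic ribosomal protein genes. The circles of the short subunits reach 0.44 in BD1 and -0.33 in V2, the squares of the long subunits stay between -0.16 and 0.16, and the crosses of all short genes follow the circles.

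By the mean of the 60 subunits on the log2 scale, the genes with the most similar course over the 17 animals were Ndufb11 (Pearson r = 0.98), LOC128114835 (r = 0.98) and Atp5po (r = 0.97). Ndufb11 and Atp5po are subunits of complexes I and V and were part of that mean, and LOC128114835 is an unnamed protein-coding gene of 525 bases. Against the mean of the 59 others, 44 subunits had an r of at least 0.8 and the median r was 0.87. In 5 subunits it was under 0.5, and these were long genes: Atp5f1a (0.47), Ndufv3 (0.35), Sdha (0.24), Ndufs1 (0.08) and Ndufa4l2 (-0.13).

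Atp5if1, the inhibitor that binds the F1 head and stops complex V from running backward when the membrane potential is lost, varied more than any other subunit. Its level was 103, 85.5, 95.6, 67.4, 112 and 124 FPKM in B1 to B6. In BD1 to BD6 it was 140, 76.4, 93.9, 47.4, 116 and 117 FPKM. In V2 to V6 it was 83.8, 50.4, 97.2, 104 and 48.8 FPKM. BD4, V3 and V6 thus stood apart at about 50 FPKM, B4 came next, and the other 13 animals had 76.4 FPKM or more. The group means were 97.8 ± 19.9 (SD, n = 6) in bonded, 98.5 ± 33.1 (n = 6) in bond-disrupted and 76.8 ± 25.8 FPKM (n = 5) in virgin animals, and the groups overlapped. The other subunits did not follow this pattern in all of these animals: the median deviation of the 60 subunits was 0.02 in V6, -0.16 in BD4 and -0.25 in V3. Over the 17 animals Atp5if1 had a Pearson r of 0.55 with the mean of the other subunits, and BD1 was its highest animal too. Relative to Atp5f1b, the subunit it binds, Atp5if1 ranged from 0.213 in V6 and 0.225 in BD4 to 0.579 in BD6. Its SD within groups was 0.47 on the log2 scale, at or above that of 87.9% of tested genes, against a median of 0.20 for the subunits. B4 and BD4 carry the same number, and V4, which also carries it, had 97.2 FPKM.

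**Figure D4:**
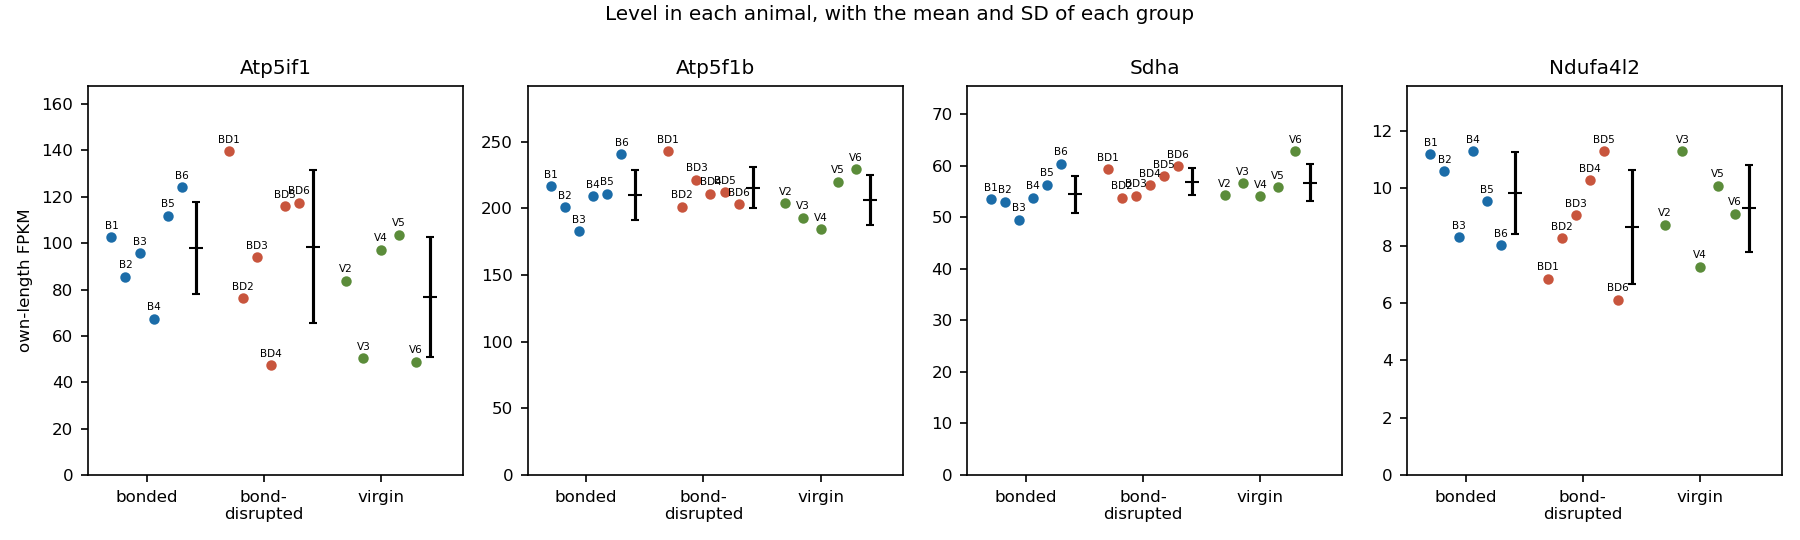
Own-length FPKM of Atp5if1, Atp5f1b, Sdha and Ndufa4l2 in each animal, with the mean and SD of each group at its right; each axis starts at 0. Atp5if1 spans 47.4 to 140 FPKM with BD4, V3 and V6 lowest, Atp5f1b and Sdha stay within 1.33 and 1.27 times from the lowest to the highest animal, and the groups overlap in all 4 genes.

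Ndufa4l2 went its own way. It was lowest in BD6 (6.11 FPKM), BD1 (6.85) and V4 (7.26) and highest in BD5 (11.3), B4 (11.3) and V3 (11.3). The group means were 9.82 ± 1.44 (SD, n = 6) in bonded, 8.65 ± 1.98 (n = 6) in bond-disrupted and 9.30 ± 1.51 FPKM (n = 5) in virgin animals. The lowest and the highest value were both of bond-disrupted animals, and all 3 groups overlapped.

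The comparison of bond-disrupted with bonded animals sets males separated from the mate against paired males, and any change of housing after separation is part of it. No subunit was called different with limma on log2(FPKM + 1), where a call needed an adjusted p under 0.1 together with a 2-fold difference, and 0% of the 15783 genes tested were called. The smallest adjusted p of a subunit was 0.855, and limma voom on recovered reads also called none, with 0 of 60 at an unadjusted p under 0.05, against 6.58% of all genes in that fit. By limma, 1 of 60 subunits (1.67%) had an unadjusted p under 0.05, against 5.8% of all genes tested (3.04% lower and 2.76% higher in bond-disrupted animals), and that subunit was higher. The log2 fold change was below 0 for 42 of 60 subunits, against 48.4% of all genes, and the median was -0.05, against 0.00 for all genes. The 95% interval of the difference lay within a fold change of 1.5 in either direction for all 60 subunits, against 78.3% of all genes tested (within a fold change of 2 for 94% of them). By voom the median was -0.09, with 50 of 60 subunits and 60.2% of all genes below 0. The median of the subunits was -0.01 without BD6 and -0.13 without BD1, where 4 of 60 (6.67%) had an unadjusted p under 0.05, against 7.98% of all genes. Without V2 and V3 as well, which enter this comparison through the shared spread alone, the median was the same and 15 of 60 (25%) had such a p, against 8.09%. These 3 animals were picked for their extreme values in the same subunits, so the medians and the spread in fits without them are not independent of the choice.

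The direction of this difference differed with gene length. It was below 0 for 35 of the 39 short subunits (median -0.08) and above 0 for 8 of the 10 long ones (median 0.05). All genes of at least 5 FPKM were split in the same order, with 64.3% of those under 1000 bases and 40.2% of those of 1500 bases or longer below 0. After the trend with length was removed in each animal, the median over the 60 subunits was -0.02, with 34 below 0, against 52.2% of all genes, and 2 of 60 (3.33%) had an unadjusted p under 0.05, against 6.57%.

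The subunit at an unadjusted p under 0.05 was Ndufa7, a small accessory subunit of complex I. It had 47.1 to 57.4 FPKM (median 54.2) in bonded and 53.3 to 74.5 (median 60.1) in bond-disrupted animals, and 45.1, 46.5, 50.5, 53.6 and 54.1 in V2 to V6. In 4 of the 6 bond-disrupted animals the level lay above all other animals, but the groups overlapped. Its log2 fold change was 0.19 ± 0.08 (SE) against bonded animals, with an unadjusted limma p of 0.036 and an adjusted p of 0.855. With lengths removed by an additive fit in place of recovered lengths, the difference was 0.47, and that between virgin and bonded animals was 0.15 instead of -0.08; without BD1, V2 and V3 the first was 0.13. Some of its reads were shared with another gene and counted in fractions, in 5 of the 17 animals.

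After Ndufa7, the largest differences were those of Ndufa2 and Ndufa4l2, with lower values in bond-disrupted animals and log2 fold changes of -0.18 ± 0.17 and -0.18 ± 0.14 (SE), neither past the test. Catalytic subunits differed little. Atp5f1b had 183 to 240 FPKM (median 210) in bonded, 201 to 243 (median 211) in bond-disrupted and 204, 193, 184, 220 and 229 FPKM in V2 to V6. The interval of its difference between bond-disrupted and bonded animals was -0.12 to 0.20 on the log2 scale. Sdha had 49.5 to 60.4 FPKM (median 53.6) in bonded, 53.8 to 59.9 (median 57.1) in bond-disrupted and 54.3, 56.6, 54.0, 55.8 and 62.9 in V2 to V6, with an interval of -0.06 to 0.19. For Ndufs1 it was -0.07 to 0.23, for Ndufv1 -0.11 to 0.28 and for Atp5f1a -0.06 to 0.20. The log2 fold changes of the other complex II subunits were 0.02 ± 0.09 for Sdhb, 0.07 ± 0.10 for Sdhc and 0.02 ± 0.10 for Sdhd.

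The comparison of virgin with bonded animals sets males that never had a mate against paired males, which also differed in cage mates. Again 0 of 60 subunits were called with limma, 0% of all genes tested were called, the smallest adjusted p of a subunit was 1, and voom called none, with 10 of 60 (16.7%) at an unadjusted p under 0.05, against 3.6% of all genes in that fit. The log2 fold change was below 0 for 55 of 60 subunits, against 48.2% of all genes tested, and the median was -0.16, against 0.01 for all genes. By limma, 4 of 60 (6.67%) had an unadjusted p under 0.05, against 3.59% of all genes (1.53% lower and 2.06% higher in virgins), and all 4 had lower values in virgins. The 95% interval lay within a fold change of 2 for all 60, against 94% of all genes, and within 1.5 for 56 (93.3%), against 78.5%. V2 and V3 had a large share in these values: the median was -0.10 without V2 and -0.11 without V3, with 54 of 60 subunits below 0 in the first case, against 48.0% of all genes, and 53 in the second, against 46.9%. No subunit had an unadjusted p under 0.05 in either, against 3.28% and 2.85% of all genes. Without BD1, which enters this comparison through the shared spread alone, there were 12 of 60 (20%), against 4.27% of all genes. BD1 was the highest animal for 51 of the 60 subunits, so leaving it out narrows their spread by construction. The share of all genes, which were not chosen in this way, is not a like background for that count. Without BD1, V2 and V3 the median was -0.02, with 37 of 60 below 0, against 46.8% of all genes, and 0 subunits at an unadjusted p under 0.05, against 3.82% of all genes in that fit. V2 and V3 were the lowest virgins in these subunits, so leaving them out raises this median by construction.

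The 4 genes were Ndufb6, Ndufa11, Ndufc2 and Atp5mk, small membrane subunits of complexes I and V. Ndufb6 had 57.1 to 72.2 FPKM (median 63.3) in bonded and 53.4 to 78.7 (median 56.9) in bond-disrupted animals, and 45.9, 51.1, 55.9, 59.8 and 55.9 in V2 to V6, a log2 fold change of -0.24 ± 0.10 (SE) against bonded animals with an unadjusted limma p of 0.0294. Ndufa11 had 61.6 to 67.8 FPKM (median 64.5) in bonded and 49.8 to 75.1 (median 54.2) in bond-disrupted animals, and 44.8, 46.7, 56.0, 65.5 and 60.4 in V2 to V6 (-0.25 ± 0.11). For both genes 4 of the 5 virgins were below all bonded animals and V5 was within the bonded range. Ndufc2 had 84.1 to 103 FPKM in bonded animals and 60.1, 74.1, 93.0, 82.4 and 78.5 in V2 to V6 (-0.28 ± 0.13). Atp5mk had 89.0 to 99.5 FPKM in bonded animals and 66.4, 73.1, 93.4, 92.4 and 84.1 in V2 to V6 (-0.25 ± 0.11). Both overlapped the bonded range, and each adjusted p was 1. Without BD1, V2 and V3 the values of these 4 genes ran from -0.15 to -0.10, and by the additive fit Ndufb6 and Atp5mk were at -0.13. With the length trend removed, Ndufb6 was at -0.14, Atp5mk at -0.12, Ndufc2 at -0.18 and Ndufa11 at -0.17.

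The difference between virgin and bonded animals depended on gene length as the variation between animals did. The median log2 fold change was -0.17 over the 39 short subunits, with 38 below 0, and -0.01 over the 10 long ones, with 6 below 0. Across the 60 genes the fold change went with log2 length (Pearson r = 0.70, Spearman rho = 0.64). All genes of at least 5 FPKM showed the same order, with a median of -0.09 for those under 1000 bases and 0.02 for those of 1500 bases or longer. Of these short and long genes, 72.5% and 41.1% were below 0. After the trend with length was removed in each animal, the median over the 60 subunits was -0.07, with 51 below 0, against 52.9% of all genes, and 5 of 60 (8.33%) had an unadjusted p under 0.05, against 3.95% of all genes. By role, the medians were -0.12 for the core subunits of complex I, -0.17 for its other subunits, -0.06 for complex II, -0.15 for the F1 head, -0.16 for the stalk, -0.18 for subunit c and -0.16 for the other small membrane subunits. The largest differences were those of Atp5if1 (-0.39 ± 0.27, SE), Ndufa5 (-0.30 ± 0.15) and Ndufc2, with an unadjusted limma p of 0.162 for Atp5if1 and 0.0649 for Ndufa5. Of the complex II subunits, Sdhb had a fold change of -0.16 ± 0.10 and Sdha of 0.06 ± 0.06.

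**Figure D5:**
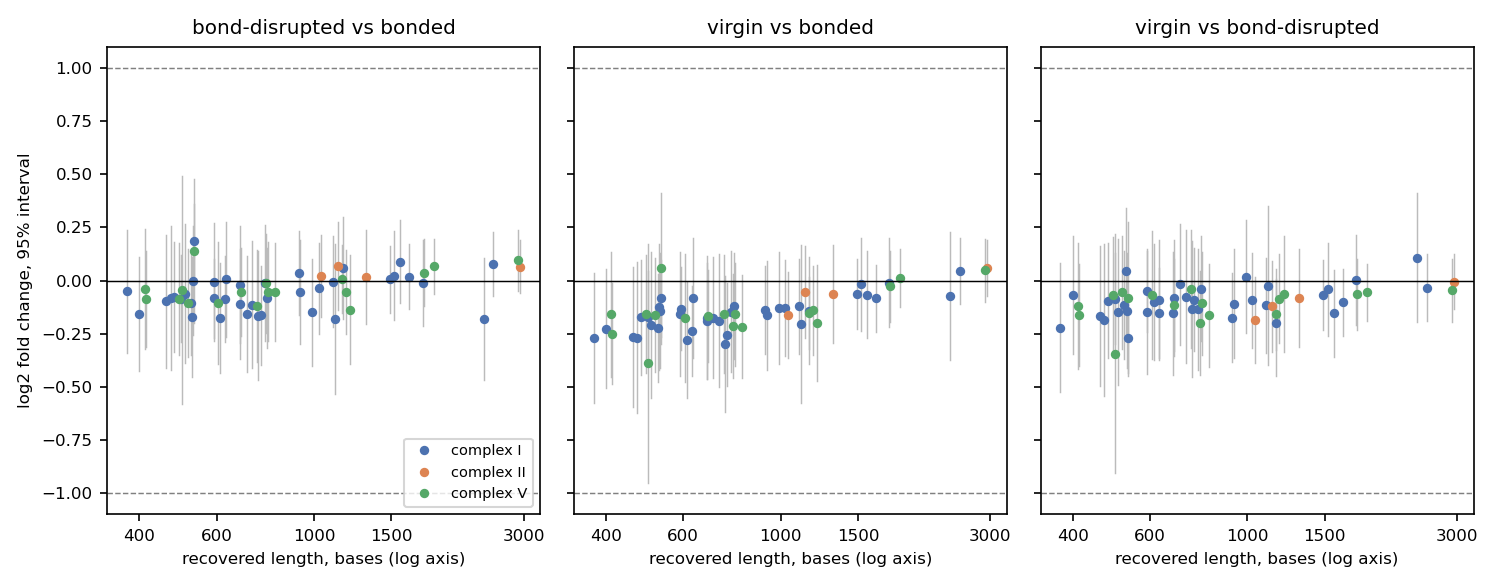
Fitted log2 fold change of each of the 60 subunits (dots, coloured by complex) with its 95% interval (grey lines) against recovered gene length in bases on a log axis, for the 3 comparisons. Dashed lines mark a fold change of 2. No interval reaches them, and in virgin against bonded animals the short genes lie below 0 (median -0.17) and the long ones near it (median -0.01).

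The comparison of virgin with bond-disrupted animals sets males without a mate at the time of collection against each other. Limma called 0 of 60 subunits and 0% of all genes tested, the smallest adjusted p of a subunit was 0.952, and voom called none, with 2 of 60 (3.33%) at an unadjusted p under 0.05, against 4.49% of all genes in that fit. The fold change was below 0 for 56 of 60 subunits, against 48.3% of all genes tested, with a median of -0.09, against 0.00. It was below 0 for 37 of the 39 short subunits (median -0.11) and for 8 of the 10 long ones (median -0.04), against 63.1% and 49.6% of all genes of these lengths. With the trend with length removed in each animal, the median over the 60 subunits was -0.04, with 48 below 0, against 48.6% of all genes. The sign of the median without this correction depended on the animals that stood apart. The median was -0.02 without BD1, with 39 below 0, against 46.5% of all genes, and without BD1, V2 and V3 it was 0.10, with 10 of 60 below 0, against 47.1%. BD1 was the highest bond-disrupted animal in these subunits and V2 and V3 the lowest virgins. The direction of this shift therefore follows from the choice of animals. By limma, 1 of 60 (1.67%) had an unadjusted p under 0.05, against 4.23% of all genes (2.05% lower and 2.19% higher in virgins). It was Ndufa7, with a log2 fold change of -0.27 ± 0.09 (SE), an unadjusted limma p of 0.00591 and an adjusted p of 0.952, and its value was -0.13 without BD1, V2 and V3. Atp5if1 (-0.34 ± 0.27) and Ndufb1, the shortest of the subunit genes (-0.22 ± 0.14), were the other genes with the largest differences. Ndufb1 had 41.5 to 79.2 FPKM (median 55.6) in bond-disrupted and 51.2 to 63.2 (median 60.2) in bonded animals, and 39.4, 46.0, 53.6, 50.0 and 54.5 in V2 to V6, so the groups overlapped. The 95% interval lay within a fold change of 1.5 for 59 of 60 subunits, against 77% of all genes, and within 2 for all 60, against 93.3%. The bonded animals served in the first and second comparison, and bond-disrupted and virgin animals also served in more than 1, so the 3 comparisons are not independent of each other.

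In no comparison did the groups of any subunit fail to overlap, against 0.266% of all genes tested for bond-disrupted against bonded, 0.482% for virgin against bonded and 0.272% for virgin against bond-disrupted animals.

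Other genes of the pathway were taken from fixed lists, and none was called in any comparison. Of 47 assembly factors, which build the complexes without being part of them, 23 were in the table and 22 were tested, with medians of -0.01, -0.06 and -0.05 on the log2 scale in the 3 comparisons in the order above. Ndufaf1, an assembly factor of complex I with a mean of 9.99 FPKM, was lower in virgins by -0.14 ± 0.06 (SE) against bonded and -0.22 ± 0.06 against bond-disrupted animals, with unadjusted limma p of 0.0297 and 0.00178 and adjusted p of 1 and 0.952. In each of these comparisons it was 1 of 22 at an unadjusted p under 0.05, against 3.59% and 4.23% of all genes tested. Of 14 regulators of mitochondrial genes, such as Ppargc1a and Tfam, 13 were tested, with medians of -0.01, 0.05 and 0.03. Yy1 reached an unadjusted limma p of 0.0272 between bond-disrupted and bonded animals (0.13 ± 0.05, adjusted p = 0.816), as 1 of 13 under 0.05 against 5.8% of all genes tested. Of 14 subunits and carriers outside the symbol rule, such as Ndufab1 and the enzymes of ubiquinone synthesis, 12 were tested, with medians of -0.03, -0.02 and -0.02. The 13 subunits encoded in mitochondrial DNA were not analysed here.

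The 13 citric acid cycle enzymes had medians of 0.06, -0.05 and -0.04. Between virgin and bonded animals Mdh2, which makes the last oxidation of the cycle, was at -0.21 ± 0.09 (SE) and Suclg1 at -0.20 ± 0.09. Limma gave them an unadjusted p of 0.0382 and 0.0436 and an adjusted p of 1. These were 2 of 13 at an unadjusted p under 0.05, against 3.59% of all genes tested. Dld, a subunit shared by the dehydrogenases of the mitochondrial matrix, was at -0.15 ± 0.06 between virgin and bond-disrupted animals, with a limma p of 0.0301 before and 0.952 after adjustment. It was 1 of 13 at an unadjusted p under 0.05, against 4.23% of all genes. Of 93 cytosolic ribosomal protein genes 89 were tested, with medians of 0.00, -0.09 and -0.08. These lists stand beside medians of -0.05, -0.16 and -0.09 for the 60 subunits, and no test of the difference between lists was made.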

How the data were processed

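RNA from the lungs of 6 bonded, 6 bond-disrupted and 5 virgin animals was sequenced by the authors from strand-specific libraries, and FPKM per gene and animal were deposited in 1 table; the submitters' processing notes name FastQC, Trim Galore 0.4.5, STAR 2.7.2, SAMtools 1.5, featureCounts and Subread 1.5.3. The genome build is not given in the sources used here. Gene names matched RefSeq symbols of assembly ASM782708v3 for all 27786 rows.

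In the deposited FPKM, column j of the 17 had been divided by the length of the gene j rows above. Depths and lengths were found by requiring that every FPKM correspond to a whole number of reads, or hundredths of reads where reads were shared; depths were set with small RNA genes, 1493 of whose 1520 solved lengths equalled RefSeq. In all, 26853 of 27803 lengths were solved, and 98.5% of recovered values above 0 were whole reads. A length gives whole reads at its multiples too; the one nearest to the genes' medians over animals was taken, which settled 135 of 1020 subunit values. Such a choice can hide a change of a factor of 2 in a single animal. The median SD of log2 FPKM over animals was 1.54 as deposited and 0.23 with own lengths, over 14265 genes averaging 100 reads or more. Atp5mg, Sdhd and Ndufa7 had reads in fractions.

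Groups came from the sample labels. Own-length FPKM were compared as log2(FPKM + 1), for genes of at least 1 FPKM in at least 1 animal, with limma 3.58.1 in R 4.3.3, 3 groups in 1 fit, two-sided moderated tests and Benjamini-Hochberg adjustment within each comparison. A call needed an adjusted p under 0.1 together with a 2-fold difference, as the study's methods state. Fold changes of low genes are understated on this scale. Tables and figures used Python 3.11.15. The steps were tested on simulated data. The closing section gives the alternatives.

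The subunits and the lists were chosen with earlier results of these data known. The genes named are paralogs, catalytic and core subunits, the inhibitor, the highest and the lowest gene of each complex, the 3 largest differences of each comparison, those at an unadjusted p under 0.05 and the 3 genes most like the subunit mean; 1 gene of this rule is not reported here. Length classes and the alternatives without BD1, V2 and V3, with the length trend removed and with a block of bonded and bond-disrupted animals alone were chosen after seeing the data; genes named for their part in these patterns were as well. No label gives a batch. Libraries of a group came from separate animals.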

Additional observations from a re-analysis of the deposited data

Results flagged for a closer look

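Of 87 group values examined (26 named genes and 3 medians of the subunits in each of 3 groups), 5 had an animal whose gap to its nearest neighbour was large beside the range of its group; chance gives about 1 in 20. BD1 was the highest bond-disrupted animal for Atp5po (229.9 FPKM, next 168.6), Ndufb6 (78.7, next 61.3) and Ndufc2 (117.5, next 83.1). B3 was the lowest bonded animal for Atp5mk (89.0 FPKM, next 96.6), and V4 was the lowest virgin for Ndufs1 (31.0 FPKM, next 36.7).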

How the results depend on the processing

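No subunit was called under any of 33 alternatives in the comparisons and for the subunits that each covered. The smallest adjusted limma p of a subunit was 0.385 with FPKM as deposited and 0.576 otherwise. Limits: whole-lung RNA averages all cells, complexes III and IV were not analysed here, and with 5 or 6 animals per group small differences were not detectable. With FPKM as deposited, limma called 40, 113 and 35 genes in the 3 comparisons (bond-disrupted against bonded, virgin against bonded, virgin against bond-disrupted), against 0, 0 and 0; dividing each animal by another gene's length is part of that alternative's construction. The median over subunits between virgin and bond-disrupted animals was then -0.31. Without BD1, V2 and V3 it was 0.10, a shift whose direction follows from choosing these animals by their extreme values. Why these animals stood apart was not tested. Leaving out 1 animal at a time, the medians ranged from -0.13 to -0.01, from -0.19 to -0.10 and from -0.14 to -0.02, and calls over all genes from 0 to 1, 0 to 1 and 0 to 0, the 1 call appearing without B4. Named genes changed sign, while not called, in 52 of 856, 24 of 830 and 45 of 830 values. In the additive fit, which covered 56 of the 60 subunits, 17 of 72 group levels of named genes moved by over 1 SD. With the animal number as a replicate block the medians were -0.05, -0.12 and -0.06 and 0 subunits were called, with 1, 0 and 1 of 60 at an unadjusted p under 0.05 (5.51%, 3.75% and 3.87% of all genes). The study names some same-numbered animals as siblings. Over 9739 genes, the deviations of same-numbered bonded and bond-disrupted animals correlated positively in all 6 pairs (0.096 to 0.43, above 0.1 in 5), whereas pairs with a virgin ranged from -0.40 to 0.16 (above 0.1 in 2 of 10). A block fit of bonded and bond-disrupted animals alone, chosen after seeing the data, gave a median of -0.05, 0 subunits called and 0 at an unadjusted p under 0.05, against 5.79% of all genes. Of all animals, 6 of 17 correlated best with their own number.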
